A study of Rattus norvegicus with 6 samples.

Results

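Transporters that move neurotransmitters and amino acids across membranes were followed in the hippocampus of exercised rats. They were taken as every non-control probe of the arrays whose array gene name, after removal of the suffixes _predicted and _mapped, begins with Slc1a, Slc6a, Slc17a, Slc18a, Slc32a or Slc38a. This gave 49 probes for 40 genes, out of 41012 non-control probes on each array. Male Wistar rats were 11 weeks old, an age the methods give ahead of a week of preliminary rearing and the training. They were sedentary controls that rested on the treadmill (CONT), or ran for 60 min per day on 5 days per week over 6 weeks. Running was either below the lactate threshold at 15 m/min (mild exercise, ME) or above it at 40 m/min (intense exercise, IE). Running was forced on a treadmill. The 6 weeks included a habituation to running, longer for IE than for ME, with slight electrical foot shocks in both groups. After it ME rats received no shocks, while IE rats that stopped running were sometimes given more. IE rats that refused to run were excluded. Hippocampal RNA of 5 rats was pooled for each group. Tissue was taken within days of the last session, at times that differ between the labels and the methods. The 3 pools were compared in pairs on 6 Agilent 2-colour arrays of 60-base probes, and each pair of pools was hybridized on 2 arrays with the dyes Cy3 and Cy5 swapped. The ME vs CONT and IE vs CONT arrays share the CONT pool and lie on 1 slide, and the IE vs ME arrays lie on another. The labels speak of different pools on the arrays of a swap while the study's methods describe 1 pool per group, so the 2 arrays were taken as repeat measurements of the same RNA, and no test across rats was possible. Of the spots on an array, 66.5% to 74.4% were well above background in both channels and 0 were saturated, and the number of arrays limits the precision.

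These transporters clear transmitters from the synapse and load them into vesicles. Glutamate is taken up mainly by the SLC1 carriers of astrocytes, and GABA, glycine, the monoamines, taurine, proline and creatine are taken up with sodium and chloride by the SLC6 carriers. Vesicles are filled with glutamate by SLC17 carriers, with GABA and glycine by Slc32a1, and with amines or acetylcholine by SLC18 carriers. SLC38 carriers move glutamine, which passes from astrocytes to neurons and is made into glutamate and GABA again. Some members mark cells that lie at the edge of or outside the hippocampus: Slc6a13 and Slc6a12 are strong in the meninges, Slc1a6 in Purkinje cells of the cerebellum, and Slc6a5 in glycine neurons of the hindbrain.

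The GABA transporters Slc6a13, Slc6a12 and Slc6a11 lie on rat chromosome 4, and the first 30 of the 60 bases of their probes are shown because the only called member is one of them. Coordinates are those given with the probes for the build rn3, and no exon or UTR annotation of that build was used here. Capitals mark a longest run that a stretch shares with the stretch of the Slc6a13 probe, the first where several are as long, which was 5 bases in each case.
Slc6a13: cacagaactggagtctaactgctagggacg
Slc6a12: gagCTGCTgatcctcgcagttgctatcgtg
Slc6a11: tggaagACAGAgggcaccctgcccgagaaa
The whole probes lie at chr4:158016763-158016822 for Slc6a13, chr4:158040736-158040795 for Slc6a12 and chr4:150440112-150440919 for Slc6a11. The 60 bases of the Slc6a11 probe were placed over 808 bases of the genome, so that probe joins separate stretches of it. The Slc6a13 and Slc6a12 probes are 23.9 kb apart. Over all 60 bases, the Slc6a13 probe shared at most 8 bases in a row with another member probe, and at most 14 with any of the 41011 other probes of the array.

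Slc6a13, the GABA and taurine transporter GAT2, was higher in the ME pool than in both other pools. Ratios are given as log2 of the first named pool over the second, as the mean of the 2 arrays ± the SD between them. As the dyes are swapped, this SD holds any dye difference with the error of measurement, and not the spread between rats. In ME vs CONT the Slc6a13 ratio was 0.78 on array 1 and 0.88 on array 2, a mean of 0.83 ± 0.07, or 1.78-fold. The processed signals behind it were 251 in ME and 147 in CONT on array 1, and 251 in ME and 136 in CONT on array 2, in the scanner's arbitrary units. Signal was higher in ME on both arrays, whichever dye marked it.

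In IE vs CONT the Slc6a13 signals were 124 in IE and 136 in CONT on array 1, and 134 in IE and 127 in CONT on array 2. The ratios were -0.13 and 0.07, with a mean of -0.030 ± 0.14, so the pools overlapped. In IE vs ME the signals were 103 in IE and 186 in ME on array 1, and 100 in IE and 211 in ME on array 2, which gave ratios of -0.85 and -1.07 and a mean of -0.96 ± 0.16, or 0.513-fold. Both arrays of the other slide thus also read the ME pool as the higher one.

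To be called up-regulated, a probe needed Cy5/Cy3 of 1.5 or more where the first named pool was in Cy5, 0.75 or less where it was in Cy3, and p of the scanner software's error model below 0.01 on both arrays. Down-regulation needed the reverse. That p compares pools on 1 array and says nothing about rats. Slc6a13 was called up-regulated in ME vs CONT, with p of 0.000366 and 7.1e-05 on the arrays, and down-regulated in IE vs ME, with p of 0.00019 and 5.7e-06. It was the only member probe called in either comparison. That was 1 of the 48 member probes with a ratio on both arrays in ME vs CONT, where 0.122% of all probes were called, and 1 of 49 in IE vs ME, where 0.0732% of all probes were called. In IE vs CONT 0 of 49 member probes were called, and 0.0293% of all probes were. By the fold range alone, with no limit on p, the count of member probes was again 1, 0 and 1, in ME vs CONT, in IE vs CONT and in IE vs ME, beside 0.987%, 0.667% and 1.06% of all probes.

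The call of Slc6a13 in ME vs CONT depended on the background correction and dye normalization, which were changed together. With normexp background correction and loess on the raw signals, the ratios were 0.34 and 0.61, with a mean of 0.48, and the probe no longer passed the fold range, while in IE vs ME they were -0.59 and -0.63 and it did. No direction turned in either comparison.

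**Figure D1:**
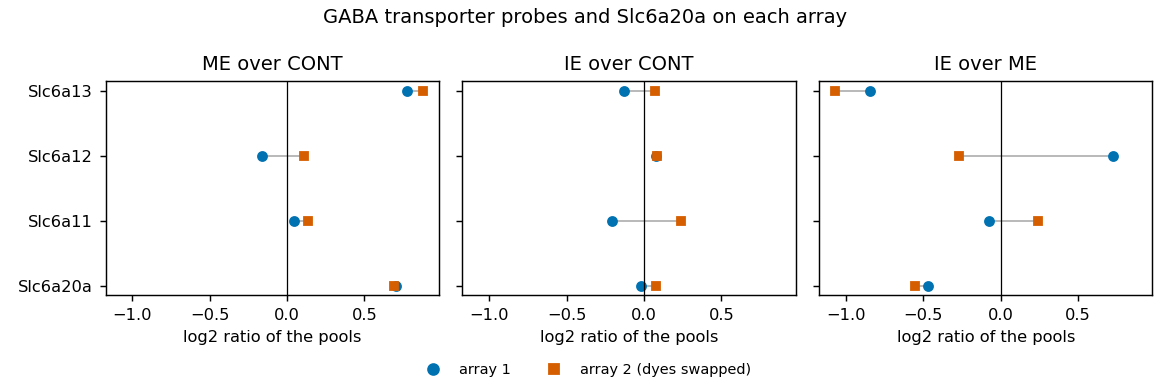
Log2 ratio of the pools (x axis) for Slc6a13, Slc6a12, Slc6a11 and Slc6a20a (y axis) in the 3 comparisons. Circles are array 1 and squares array 2 with the dyes swapped, and a grey line joins the arrays of a pair. Slc6a13 lies at 0.78 and 0.88, at -0.13 and 0.07, and at -0.85 and -1.07, and Slc6a20a lies at 0.70 and 0.69 in ME vs CONT, while Slc6a12 and Slc6a11 lie on both sides of 0 or near it.

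Slc6a12 and Slc6a11 were called in no comparison. Slc6a12, the betaine and GABA transporter BGT1 and the neighbour of Slc6a13 on the chromosome, had ratios of -0.16 and 0.11 in ME vs CONT and of 0.08 and 0.09 in IE vs CONT. In IE vs ME its arrays disagreed, at 0.72 and -0.27, with p of 0.00959 and 0.273. Slc6a11, the astrocytic transporter GAT3, had mean ratios of 0.090 ± 0.07 in ME vs CONT, 0.017 ± 0.32 in IE vs CONT and 0.082 ± 0.23 in IE vs ME. The median of the meningeal class, which on this array is the mean of Slc6a13 and Slc6a12, was thus 0.40 in ME vs CONT, 0.025 in IE vs CONT and -0.37 in IE vs ME, with -0.063 and -0.67 on the single arrays of the last. Both genes were well above background in every reading.

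Another SLC6 gene, outside the name rule, was also higher in the ME pool than in CONT. Through their RefSeq accessions, 5 probes with older array names belong to 4 further genes of these families, Slc6a20a, Slc38a7, Slc38a9 and Slc38a10. Slc6a20a, a proline and imino acid transporter that is also strong in the meninges and choroid plexus, is named Xtrp3 on the array and lies at chr8:128435400-128435459. Its ratios were 0.70 and 0.69 in ME vs CONT, a mean of 0.70 ± 0.01, and it was called up-regulated, with p of 0.00117 and 0.00145. In IE vs CONT they were -0.016 and 0.077. In IE vs ME they were -0.47 and -0.55, with p of 0.0462 and 0.0206, which did not pass the limit. Whether the Slc6a20a call in ME vs CONT held with normexp and loess is not reported here. The probes of Slc38a7, Slc38a9 and Slc38a10 were not called, with means between -0.040 and 0.18 over the 3 comparisons.

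Most markers of the meninges moved with Slc6a13 and Slc6a20a, while Slc6a12 did not. Of 8 meningeal marker genes with 12 probes, 6 genes were called up-regulated in ME vs CONT and 0 were called in IE vs CONT. In IE vs ME, 5 were called down-regulated. By probe the counts were 8, 0 and 7 of 12, beside 0.122%, 0.0293% and 0.0732% of all probes. The median ratio over the 8 genes was 1.00, -0.020 and -0.78, beside a median over all probes of 0, 0 and -0.0016. This list and the other marker lists were chosen with earlier results of these data known, so their counts are not independent evidence. Ogn, the matrix protein osteoglycin, had a mean of 1.31 ± 0.14 on 1 of its probes in ME vs CONT, and Col3a1, a fibrillar collagen, had 1.15 ± 0.14. Aldh1a2, an enzyme that makes retinoic acid in the meninges, had 0.92 ± 0.18.

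The summed processed signal of the 12 marker probes was 12389 and 12738 in ME against 6942 and 6371 in CONT on the ME vs CONT arrays. It was 6379 and 6522 in IE against 6610 and 6184 in CONT, and 4437 and 4622 in IE against 8243 and 8441 in ME. None of the 12 probes was below background in any reading, so meningeal RNA was measured in all 3 pools. Dcn at 0.17, Lum at 0.066 and a pair of Col1a1 probes at 0.24 and 0.13 were not called in ME vs CONT. The part that the amount of meninges in a sample had in the Slc6a13 ratio was not tested, and in pooled tissue more cells of a type and more RNA per cell cannot be told apart.

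**Figure D2:**
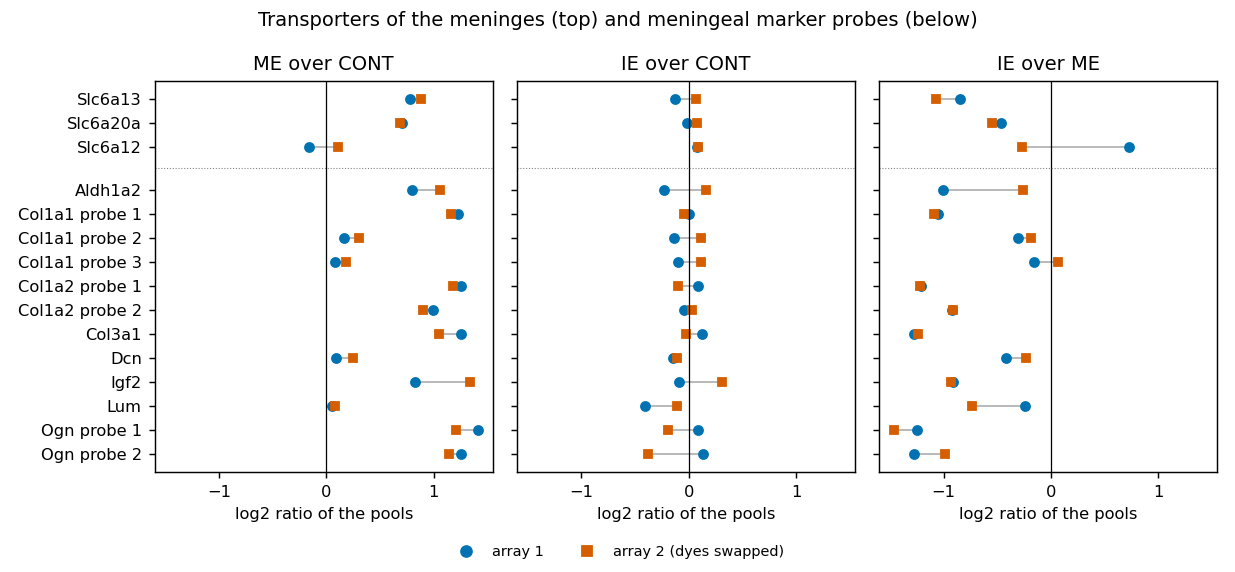
Log2 ratio of the pools (x axis) for Slc6a13, Slc6a20a and Slc6a12 above the dotted line and for the 12 probes of 8 meningeal marker genes below it (y axis). Circles are array 1 and squares array 2. Both arrays place Slc6a13, Slc6a20a and 8 of the 12 marker probes above 0.5 in ME vs CONT, and the markers lie between -0.40 and 0.31 in IE vs CONT.

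Some choroid plexus markers were higher in ME than in CONT, as Slc6a13 was. Unlike Slc6a13, some were also higher in IE than in CONT and ME. The median over the 8 marker genes was 0.44 in ME vs CONT and 0.59 in IE vs CONT. In IE vs ME it was 0.55, with 2 genes called up-regulated. Of 8 such genes, 3 were called up-regulated in ME vs CONT and 4 in IE vs CONT, among them Ttr, the carrier of thyroid hormone, with ratios of 0.91 in ME vs CONT and 2.51 in IE vs CONT. In IE vs CONT, where the summed signal of these markers was 4249 and 3988 in IE against 838 and 1085 in CONT, no member was called. In ME vs CONT the sums were 1226 and 1232 in ME against 702 and 802 in CONT, with the markers Clic6 and Kl below background in every reading. What part choroid plexus RNA had in the Slc6a13 ratios was not tested. Of 7 probes for 6 hippocampal marker genes, 7 were well above background in all readings on the slide with CONT and 6 on the other, with 0 called.

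The neuronal transporters lay close to 0. Over 8 genes the median ratio was -0.029 in ME vs CONT, -0.032 in IE vs CONT and -0.017 in IE vs ME, with 0 called in each. Slc17a7, the vesicular glutamate transporter VGLUT1 of hippocampal principal cells, had -0.17 and 0.11 in ME vs CONT and -0.10 and 0.14 in IE vs CONT. Slc32a1, which fills inhibitory vesicles, had -0.16 and 0.19 in ME vs CONT and -0.19 and 0.19 in IE vs CONT. For both genes the pool in Cy3 read higher on all 4 of these arrays, and their means were at most 0.027 from 0.

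Slc1a1, the neuronal glutamate transporter EAAC1, had means of -0.045 ± 0.04 in ME vs CONT and -0.038 ± 0.06 in IE vs CONT. Slc38a1, which brings glutamine into neurons, had -0.031 ± 0.09 and 0.086 ± 0.11. Slc6a15, a carrier of neutral amino acids, had -0.065 and -0.0014 in ME vs CONT and -0.12 and -0.039 in IE vs CONT. The means were -0.033 ± 0.04 and -0.080 ± 0.06, and the second ME vs CONT reading was close to no difference. Its ratios in IE vs ME were -0.11 and 0.0051, on both sides of 0.

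Slc6a17, a synaptic vesicle carrier of neutral amino acids, had means of -0.0077 ± 0.05 in ME vs CONT, -0.030 ± 0.03 in IE vs CONT and -0.015 ± 0.35 in IE vs ME. Slc6a7, the brain proline transporter, had -0.35 and 0.27 in ME vs CONT and -0.36 and 0.29 in IE vs CONT, again with Cy3 brighter on each array. Of these neuronal genes, the widest mean over all comparisons was the 0.086 of Slc38a1.

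The astrocytic and other glial transporters were not called. Over 6 genes the median ratio was 0.059 in ME vs CONT, 0.019 in IE vs CONT and 0.050 in IE vs ME. Slc1a2, the transporter GLT-1 that takes up most of the glutamate released in the forebrain, was read by 2 probes. They gave 0.17 and -0.24, and 0.19 and -0.26, in ME vs CONT. On every array Cy5 was the brighter dye for both probes, and their means were -0.035 and -0.039 in ME vs CONT and -0.016 and -0.041 in IE vs CONT.

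Slc1a3, the glutamate transporter GLAST of astrocytes and radial glia, had means of 0.024 and 0.0040 on its probes in ME vs CONT and 0.037 and 0.013 in IE vs CONT. Slc38a3, which releases glutamine from astrocytes, had -0.37 and 0.45 in ME vs CONT and -0.35 and 0.39 in IE vs CONT. Its means were only 0.038 and 0.021, as the Cy3 reading was the higher one on every array. Slc38a5, a related glutamine carrier, had -0.012 and 0.32 in ME vs CONT, a mean of 0.16 ± 0.24, and -0.14 and 0.11 in IE vs CONT.

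Slc6a9, the glial glycine transporter GlyT1, had 0.082 and 0.078 in ME vs CONT, and 0.18 and -0.0076 in IE vs CONT. The small ratio in ME vs CONT was above 0 with either dye, but far inside the fold range. The 6 astrocyte marker genes had a median of -0.012 in ME vs CONT and -0.0076 in IE vs CONT, with 0 of 7 probes called.

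**Figure D3:**
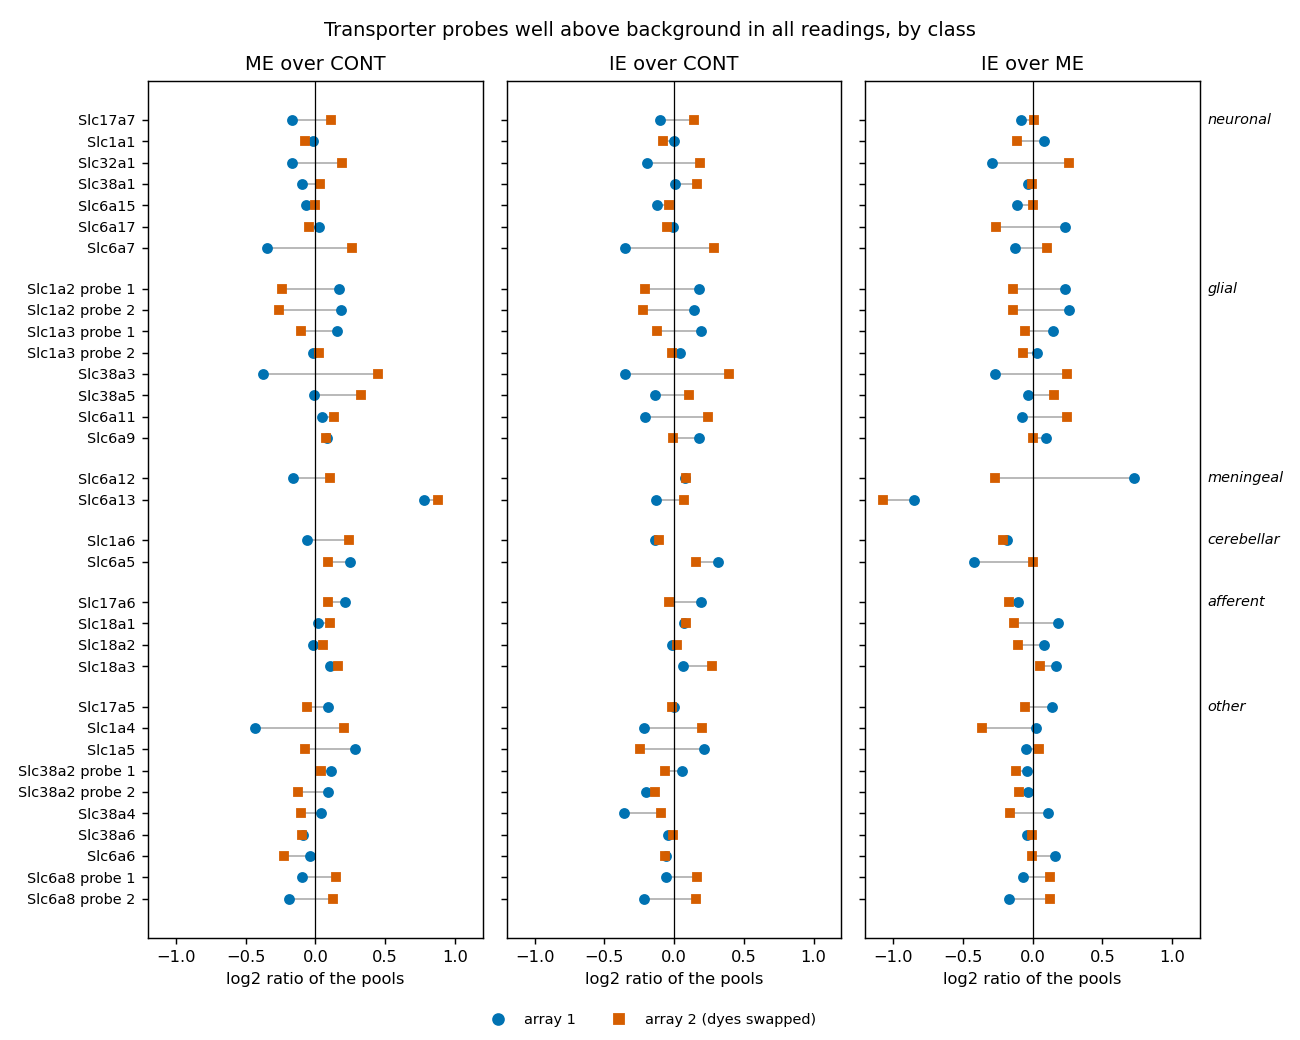
Log2 ratio of the pools (x axis) for 33 of the 34 member probes that were well above background in all 12 readings of the 6 arrays (y axis, grouped by class). Circles are array 1 and squares array 2, joined by a grey line. Slc6a13 stands apart in ME vs CONT and IE vs ME, and for most other probes the line crosses 0.

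The transporters typical of the cerebellum and hindbrain were not called. Slc1a6, the Purkinje cell glutamate transporter EAAT4, had signals of 211 in ME and 219 in CONT on array 1 and of 226 in ME and 191 in CONT on array 2. Its ratios were -0.057 and 0.24 in ME vs CONT, -0.14 and -0.11 in IE vs CONT, and -0.18 and -0.21 in IE vs ME. In the last comparison both arrays read IE lower, but p was 0.413 and 0.339. Slc6a5, the neuronal glycine transporter GlyT2, had 0.25 and 0.087 in ME vs CONT, 0.31 and 0.16 in IE vs CONT, and -0.42 and 0.0046 in IE vs ME, at signals of 35.4 to 62.7. The median of both genes was 0.13 in ME vs CONT, 0.057 in IE vs CONT and -0.20 in IE vs ME, which normexp and loess moved to 0.0396, -0.0216 and -0.0131.

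Of 7 cerebellar marker genes 5 were on the array, and 1 of them was called in ME vs CONT. That was Gabra6, a GABA receptor subunit of granule cells, with ratios of 2.92 and 2.64, for which not all readings were well above background. Pcp2, a Purkinje cell gene, had 0.41 and 0.21 in ME vs CONT, 0.020 as its mean in IE vs CONT, and -0.59 and -0.53 in IE vs ME. Gabra6 had -1.72 and -3.22 in IE vs ME, again with not all readings well above background. The median ratio over the 5 genes was 0.35 in ME vs CONT, 0.020 in IE vs CONT and -0.46 in IE vs ME. In ME vs CONT and IE vs ME it was that of a gene whose arrays had opposite signs. The summed signal of the list was 4649 and 4907 in ME against 4501 and 4414 in CONT, and 4265 and 4320 in IE against 4412 and 4052 in CONT. In IE vs ME it was 1811 and 1946 in IE against 2138 and 2121 in ME, with 0 genes called. In IE vs CONT 0 of the 5 were called, and Gabra6 was below background in all readings. What part cerebellar RNA had in the Slc1a6 ratios was not tested.

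The transporters of afferent fibres and aminergic cells were called in 0 of 8 genes. Their median was 0.13 in ME vs CONT, 0.077 in IE vs CONT and 0.067 in IE vs ME. Over probes well above background in all readings of a pair it was 0.066, 0.041 and 0.0076. These medians were over 7, 6 and 4 genes. In ME vs CONT the median of 0.13 was over the same 7 genes, as Slc6a3 had a ratio on only 1 array. The lower value there came from leaving out a Slc18a2 probe near background. Slc18a3, the vesicular acetylcholine transporter, was above 0 on all 6 arrays, at 0.11 and 0.16 in ME vs CONT, 0.063 and 0.27 in IE vs CONT, and 0.17 and 0.052 in IE vs ME. All 6 ratios were below 0.3. Slc17a6, the vesicular glutamate transporter VGLUT2 of subcortical inputs, had 0.21 and 0.090 in ME vs CONT, 0.20 and -0.038 in IE vs CONT, and -0.10 and -0.17 in IE vs ME.

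Slc18a1, a vesicular amine transporter, had means of 0.064 ± 0.06 and 0.076 ± 0.01 in ME vs CONT and IE vs CONT. Its relative Slc18a2, VMAT2, had 0.019 and 0.0062 on the probe whose readings were all well above background, while another probe read 0.31 ± 0.71 and 0.64 ± 1.38 near background. The noradrenaline transporter Slc6a2 had 0.066 ± 0.10 and -0.13 ± 0.11. The serotonin transporter Slc6a4 had 2 probes with -0.73 and 0.06, and -0.47 and 0.12, in ME vs CONT, with opposite signs on the arrays of both probes. Slc17a8, VGLUT3, had -0.39 and 0.81 in ME vs CONT at signals of 17.6 to 35.4, and 1.14 and 0.37 in IE vs ME, where only 2 of 4 readings were well above background.

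Slc6a3, the dopamine transporter, gave the widest ratios of the set, and they belonged to the dye. In IE vs CONT its ratio was 4.99 on array 1 and -4.31 on array 2, since the pool in Cy5 read 141 and 109 and the pool in Cy3 4.45 and 5.46. In ME vs CONT the spot of array 1 was an outlier and was dropped, and array 2 gave -4.59, again with Cy5 brighter. On the other slide the ratios were 1.11 and -1.11, and 0 of 4 readings were well above background. A single array would have given Slc6a3 as strongly changed, with p of 6e-20 on array 1 of IE vs CONT, where the swapped array turned the direction.

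**Figure D4:**
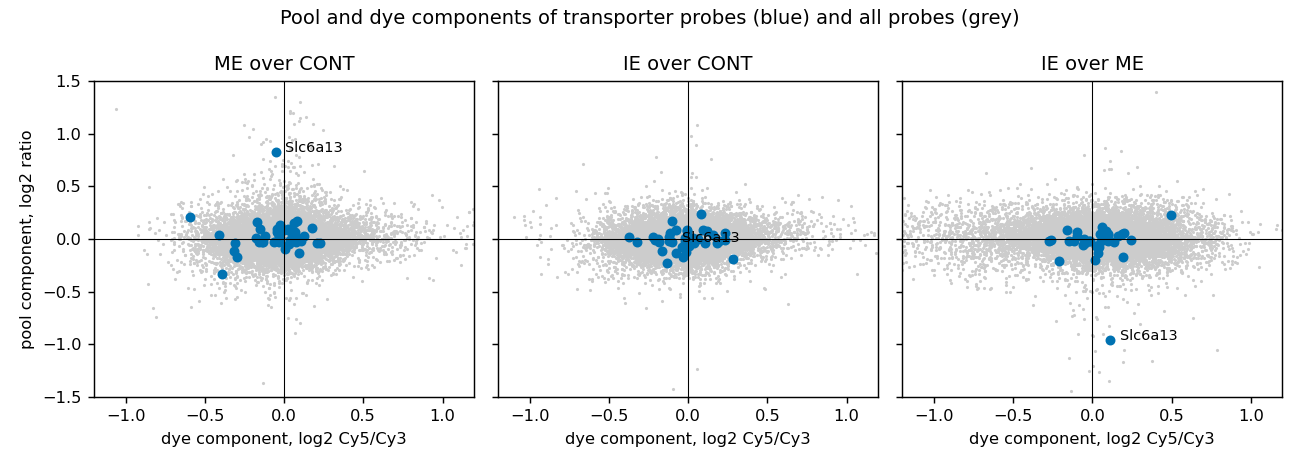
Pool component (y axis, mean log2 ratio of the arrays of a pair) against dye component (x axis, log2 Cy5/Cy3 shared by the arrays) for probes well above background in all 4 readings of a pair. Blue points are the 39, 39 and 34 member probes and grey points all probes, some of which fall outside the axes. The blue points spread along the dye axis, and Slc6a13 lies at 0.83 and -0.96 on the pool axis in ME vs CONT and IE vs ME.

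The same split was made for every member. The mean log2 ratio of a pair is its pool component, and the mean log2 Cy5/Cy3 of its arrays is its dye component. Among members well above background in all readings of a pair, the dye component was the larger one for 25 of 39 probes in ME vs CONT, 25 of 39 in IE vs CONT and 24 of 34 in IE vs ME, or 64.1%, 64.1% and 70.6%. Over all such probes of the array it was 71.4%, 71.8% and 73.3%. The median size of the pool component was 0.055, 0.038 and 0.045 for the members, and that of the dye component was 0.080, 0.10 and 0.098.

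Seen the other way, both arrays of a pair had the same sign for 14 of 39 member probes in ME vs CONT (35.9%), beside 28.6% of all probes. This held for 14 of 39 (35.9%) beside 28.2% in IE vs CONT, and for 10 of 34 (29.4%) beside 26.7% in IE vs ME. The dye component kept its sign over all 3 pairs for 20 of the 34 probes measured in all 12 readings, with Cy5 brighter for 10 and Cy3 brighter for 10. For 7 of them it was at least 0.1 in each pair. These were Slc38a3 at -0.41, -0.37 and -0.26, Slc6a7 at -0.31, -0.32 and -0.11, Slc32a1, 1 probe of Slc6a8, 1 of Slc1a3 and both of Slc1a2.

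The mean of a pair lay within 1.2-fold of no difference for 37 of 39 member probes in ME vs CONT, 39 of 39 in IE vs CONT and 33 of 34 in IE vs ME. For all probes of the array measured this way the shares were 97.0%, 98.2% and 96.9%. Beside Slc6a13, the 1 member outside this range in ME vs CONT was a Slc6a4 probe at -0.33 ± 0.56. Among members with all readings of a pair well above background, those next to Slc6a13 by the smaller of their ratios were Slc18a3 at 0.11 and 0.16 in ME vs CONT and Slc1a6 at -0.18 and -0.21 in IE vs ME. Dimmer members came closer to the fold range, with Slc17a3 at -1.13 and -0.54 in IE vs CONT and Slc17a8 at 1.14 and 0.37 in IE vs ME.

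By family, the 7 genes of Slc1a had medians over genes of 0.014 in ME vs CONT, -0.028 in IE vs CONT and -0.016 in IE vs ME. The 16 genes of Slc6a had -0.0077, -0.014 and 0.0020, and the 6 genes of Slc38a had 0.027, -0.051 and -0.023. The 3 genes of Slc18a had 0.13, 0.17 and 0.025. Over Slc18a probes well above background in all readings of a pair the medians were 0.064, 0.076 and 0.025. The 7 genes of Slc17a had 0.017, 0.019 and 0.039, with readings near background for several of these genes.

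The remaining members carry neutral amino acids, taurine, creatine or organic anions. Slc38a4, a system A carrier, had the lowest mean of the members measured in all readings in IE vs CONT, at -0.36 and -0.094, or -0.23 ± 0.19, and lay at 0.043 and -0.10 in ME vs CONT. Slc38a2, a glutamine and alanine carrier induced by amino acid shortage, read -0.20 and -0.14 on 1 probe in IE vs CONT. The other, a brighter probe, read 0.059 and -0.066, so the Slc38a2 probes disagreed in that comparison. In IE vs ME both probes were below 0 on both arrays, at -0.035 and -0.098 and, on the brighter one, -0.039 and -0.12. Slc6a6, the taurine transporter, was below 0 on all 4 arrays against CONT, with -0.13 ± 0.13 in ME and -0.063 in IE. Slc1a4, a carrier of serine and alanine, had -0.43 and 0.21 in ME vs CONT.

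Slc6a8, the creatine transporter, had means of 0.024 and -0.031 on its probes in ME vs CONT. Slc1a5, a glutamine carrier, had 0.10 ± 0.25 on the probe above background, and Slc1a7, a glutamate transporter best known from the retina, had 0.099 ± 0.04. Slc17a5, the sialic acid carrier of lysosomes, had 0.017 ± 0.11, all in ME vs CONT. Of the 3 probes for Slc38a6, only 1 had all readings well above background, and it lay at -0.092 and -0.098 in ME vs CONT.

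Detection differed between members. Of the 49 member probes, 34 were well above background in all 12 readings, 11 in some of them and 4 in none. The 4 were the probes of Slc17a2, Slc6a14 and Slc6a18 and 1 of the 2 probes of Slc1a5. Slc17a1 and Slc17a3, transporters of kidney and liver, were above background in part of the readings, and ratios as wide as -1.36 and 1.55 for Slc17a1 in IE vs ME turned with the dye. No lower or upper bound of a fold is given for any of these, since no pool was dim on every array of a comparison while the other was measured on both.

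The enzymes that work with these transporters were called in no comparison. The list of 12 genes of the glutamate, GABA, serine and glycine pathways had 21 probes, all well above background, and 0 were called in any comparison, with medians over genes of -0.00016, -0.040 and -0.0038. In it, Gad1, which makes GABA, had -0.54 and 0.17 on 1 probe in IE vs CONT, a mean of -0.18 ± 0.51, and Gldc of the glycine cleavage system had 0.12 ± 0.18 in ME vs CONT and, on another probe, 0.20 ± 0.83 in IE vs ME. Gad1 read -0.11 ± 0.20 in IE vs ME on a further probe. Aldh5a1, which acts in GABA breakdown, had -0.12 ± 0.14 in ME vs CONT and -0.088 ± 0.05 in IE vs CONT.

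For the 9 genes of monoamine and acetylcholine synthesis, breakdown and choline uptake the medians were -0.012, 0.075 and 0.028, with 0 of 10 probes called. Tph2, which makes serotonin in neurons, had 0.25 ± 0.18 in ME vs CONT, and Dbh, which makes noradrenaline, had -0.15 ± 0.43 in ME vs CONT and 0.26 ± 0.15 in IE vs CONT. Both transcripts are made mainly by cells whose bodies lie in the brainstem. In IE vs ME Chat, which makes acetylcholine, had 0.12 ± 0.40, and Th, which starts catecholamine synthesis, had 0.086 ± 0.56. Both ratios were smaller than their spread between arrays. For the 6 SLC7 and SLC3 exchanger genes the medians were 0.031, 0.0094 and -0.029, with 0 of 8 probes called. Slc7a11, which exchanges cystine for glutamate, had -0.20 ± 0.13 in ME vs CONT and -0.082 ± 0.11 in IE vs ME, and Slc7a1, a carrier of arginine and lysine, had 0.098 ± 0.05 in IE vs CONT. Slc7a5, a carrier of large neutral amino acids, had 0.094 ± 0.18 in ME vs CONT and 0.097 ± 0.09 in IE vs CONT, and its relative Slc7a8 had -0.11 ± 0.17 in IE vs ME.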

How the data were processed

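RNA was measured on 6 Agilent 2-colour arrays, 2 with swapped dyes for each of 3 comparisons. Per the file headers, the authors used Agilent Feature Extraction in version 9.5.3.1 for the arrays with CONT and 11.0.1.1 for IE vs ME. The deposited log10 ratio of Cy5 to Cy3 is background-subtracted and LOWESS dye-normalized. The deposited p-value comes from the software's error model. The deposited intensity of each channel is on a linear scale, with medians as the only raw signals of the IE vs ME slide. Their value table, also deposited by the authors, holds log10 ratios of processed signals with the sign turned on swapped arrays, equal to the scanner files' signals within 0.001 for 100% of spots.

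Control features (1639 of 45018) and 92 to 302 outlier spots per array were left out. Ratios were turned to log2 of the first named pool over the second, spots were averaged by probe, with the median of p. A probe was well above background in a channel when this held for most of its spots. Calls used the limits on ratio and p given in the methods. The code was tested on simulated data. Members, gene lists and tests were chosen with earlier results of these data known. Named were called members, genes of the class lists, the 5 highest and 5 lowest members per comparison that were well above background with the same sign on both arrays, and, of the enzyme and exchanger lists, the 2 genes farthest from 0. Some genes that this rule takes are not reported here by name and stay in the counts and medians. Array gene names were used, and 45 of 49 member probes matched a RefSeq symbol through their accession, in the GRCr8 annotation. Probe sequences are those of the scanner files. Class medians average the probes of a gene first. Alternatives were no p threshold, 1.5-fold both ways, only probes well above background, normexp (offset 50) and loess, the value table, outlier spots kept, each array alone and a least-squares fit of the 6 arrays with a dye term per slide. Normexp without an offset was added after seeing the data. Tools were Python 3.11.15, numpy 2.4.6, pandas 2.3.3, R 4.3.3 and limma 3.58.1.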

Additional observations from a re-analysis of the deposited data

Results flagged for a closer look

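Slc17a3 lay on opposite sides of 0 with ME and IE on all arrays against CONT. The difference between the effects was not tested, since each group was 1 pool. It read 0.073 and 0.016 in ME vs CONT and -1.13 and -0.54 in IE vs CONT, a difference of -0.876 on the log2 scale, at signals of 4.91 to 21.7 with 1 and 3 of 4 readings well above background. The IE vs ME arrays gave it 1.60 and -0.97, on both sides of 0.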

How the results depend on the processing

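No paired analysis was possible because the arrays of a swap were taken as repeats of the same RNA. Of the called member probes, the count of 1 in ME vs CONT became 0 with normexp and loess, 0 with normexp without an offset, and 2 with the authors' value table, which adds Slc6a18, a probe never well above background. With 1 array in place of 2 it was 1 to 2 in ME vs CONT, 1 and 1 in IE vs CONT and 4 to 5 in IE vs ME, and Slc6a13 was among them in ME vs CONT and IE vs ME. In IE vs ME normexp without an offset gave 2, with Slc17a8 added. Other alternatives left the counts as they were. The mean of Slc6a13 in ME vs CONT was 0.48 with normexp and loess and 0.64 without the offset, and in IE vs ME it was -0.61 and -0.73.

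Of the class medians, those moved by normexp and loess were in ME vs CONT the meningeal (0.254), cerebellar (0.0396) and afferent (0.0397), in IE vs CONT the cerebellar (-0.0216), and in IE vs ME the glial (0.0126) and cerebellar (-0.0131). Without the offset, the cerebellar medians were 0.0372, 0.0114 and -0.00753 and the afferent one in ME vs CONT 0.0708. The afferent median in ME vs CONT was 0.0657 over probes well above background, 0.0997 with outlier spots kept and 0.0595 in the joint fit. On single arrays, the medians in ME vs CONT ranged from -0.0791 to 0.0619 for the neuronal class, 0.0554 to 0.107 for the glial, 0.308 to 0.494 for the meningeal, 0.0954 to 0.166 for the cerebellar and 0.0903 to 0.106 for the afferent. In the same order they ranged in IE vs CONT from -0.0900 to 0.0502, -0.00915 to 0.0489, -0.0274 to 0.0780, 0.0258 to 0.0886 and -0.0472 to 0.0658, and in IE vs ME from -0.0657 to 0.000867, 0.0289 to 0.0792, -0.672 to -0.0628, -0.301 to -0.104 and -0.152 to 0.318. The cause of these shifts was not tested.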
